A study of Homo sapiens with 42 samples.

Results

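The genes described here were the matrix metalloproteinases (MMP), the ADAM and ADAMTS proteases and their tissue inhibitors (TIMP) in human 786-O cells with altered hypoxia-inducible factors (HIFs). They were chosen by symbol alone, as MMP, ADAM or ADAMTS followed by a number, or TIMP1 to TIMP4, which took 74 of the 60609 genes listed in each count table. These were 24 MMP, 27 ADAM, 19 ADAMTS and 4 TIMP genes.

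MMPs are zinc-dependent enzymes that cut collagens and other matrix proteins, and most are secreted as inactive proenzymes. ADAMs are membrane-anchored relatives, several of which release growth factors and receptors from the cell surface, and the secreted ADAMTS enzymes process proteoglycans, procollagens and other matrix proteins. TIMPs bind the active site of these enzymes, with TIMP3 the broadest inhibitor of ADAMs and ADAMTSs, so that matrix turnover around a tumor cell reflects the balance of both. MMP2 and MMP14 are commonly studied in renal carcinoma.

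786-O is a line from a clear cell renal cell carcinoma with no functional VHL, the protein that marks HIF-α for destruction. It has stable HIF-2α and no functional HIF-1α. PolyA RNA of 14 groups with 3 libraries each (42 in all) was sequenced in 2 batches that differed in RNA extraction, library kit and read length, and the study used them to ask which genes each HIF form acts on. Each batch had its own WT cells, the untreated parent line without a transgene or an empty vector.

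In batch 1, HIF-1b KIN and HIF-2a KIN were single clones with the V5-HaloTag knocked into both copies of the HIF-1β or HIF-2α gene. HIF-1a and HIF-2a lines carried a V5-HaloTag fusion of HIF-1α or HIF-2α, stably expressed from the weak L30 promoter under puromycin selection, on top of the cells' own HIF-2α. HIF-1a R30E and HIF-2a R27E carried a DNA-binding mutant, and HIF-1aDM (R170A and V191D) and HIF-2aDM (R171A and V192D) a dimerization mutant. One genotype label of the HIF-2aDM libraries names HIF-1α where the title names HIF-2α. In batch 2, HIF-1a and HIF-2a lines stood beside domain swaps: HIF-2a/1a held the structured N-terminus of HIF-2α followed by the intrinsically disordered region (IDR) of HIF-1α, and HIF-1a/2a was built the other way round. In every transgene line the WT comparison holds the transgene and the selection together, and they cannot be told apart. Each knock-in line was a single clone set against the unedited parent cells, so the tag and the choice of clone cannot be told apart either.

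Libraries held 42377599 to 101186554 counted reads in batch 1 (median 66795104) and 76366799 to 109642159 in batch 2 (median 90438640). Levels are given in read counts scaled to CPM (counts per 1e+06) of the TMM-scaled library, so that 3 reads corresponded to 0.0311 to 0.0713 CPM in batch 1 and 0.0271 to 0.0397 CPM in batch 2. These 3 reads are the floor used below, and it covers counting error only. HIF1A transcript was 3.62 ± 0.250 CPM (SD, n = 3) in WT of batch 1 and 45.2 in the HIF-1a line, and EPAS1, the HIF-2α gene, was 217 in WT and 673 in the HIF-2a line. All 9 renal carcinoma and proximal tubule markers were detected, with a summed level of 2625 to 4662 CPM in batch 1 and 4273 to 5184 CPM in batch 2. None of 5 endothelial markers was detected in batch 1 and 2 of 5 in batch 2, with sums up to 0.331 and 0.867 CPM. Leukocyte markers summed to at most 1.00 CPM (2 of 5 detected), and fibroblast markers to between 5.89 and 39.7 CPM (3 of 6 detected). In every group of batch 1 the library numbered 3 lay apart from those numbered 1 and 2, and results that are lost without these 9 libraries are named below. In these bulk libraries, fewer cells expressing a gene and less RNA per cell cannot be told apart.

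A member was taken as detected in a batch at a mean raw count of at least 10. The same 36 of 74 members were detected in both batches: 12 of 24 MMPs, 9 of 27 ADAMs, 11 of 19 ADAMTSs and all 4 TIMPs. The detected members covered all 6 membrane-type MMPs, both gelatinases, 2 of 3 collagenases and 1 of 2 matrilysins, and none of the 3 stromelysins. With no reads in any library stood 13 members in batch 1 and 12 in batch 2. A mean normalized count of at least 0.5 admitted 54 members to the tests of batch 1 and 58 to those of batch 2. A member was called at an adjusted p of at most 0.01 and a change of at least 2-fold (edgeR quasi-likelihood test, Benjamini-Hochberg adjustment over all genes tested), and all adjusted p-values below come from that test.

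Per kilobase of exon, the WT level was highest for MMP14, the membrane-type MMP that activates pro-MMP2, at 237.7 ± 24.2 CPM per kb in batch 1 and 137.2 ± 0.903 in batch 2 (SD, n = 3). In batch 1 it was followed by ADAM15 at 74.9 ± 15.5, TIMP1 at 59.4 ± 3.31, MMP24 at 59.0 ± 11.3 and ADAMTS1, a versican- and aggrecan-cutting enzyme, at 37.8 ± 4.13. TIMP1 and MMP24 did not differ beyond their spread. TIMP2 (20.3 ± 2.28), the gelatinase MMP2 (18.6 ± 1.43) and ADAM19 (15.9 ± 2.19) came next, again with ranges close to each other, before ADAM12 at 10.3 ± 0.611 and ADAM9 at 8.13 ± 0.449. In batch 2 ADAM10, a major sheddase, stood at 13.4 ± 0.567 CPM per kb beside MMP2 at 13.3 ± 0.879, against 6.39 ± 0.821 in batch 1. Levels were compared between genes only within a batch.

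Most of these abundant members were not called in any comparison of a line with WT. Over the 12 such comparisons, 25 members were called at least once, of which 22 were detected members, and 14 detected members were called in none: ADAM9, ADAM10, ADAM12, ADAM15, ADAM17, ADAM19, ADAM22, ADAMTS1, ADAMTS3, ADAMTS16, MMP14, MMP17, MMP24 and TIMP4. Of these, MMP17 was called lower in HIF-1b KIN with the library number as a block, by DESeq2 and without the filter on low counts, and TIMP4 was called by DESeq2 in 2 lines, as described below. The members called most often were ADAMTS7 and MMP16, each in 11 of 12 comparisons, and ADAMTS12 in 9. In single comparisons with WT, 0.431% to 7.72% of all tested genes were called. The share of all genes called at least once over the 12 is not given here, so the counts of members are not set against it.

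**Figure D1:**
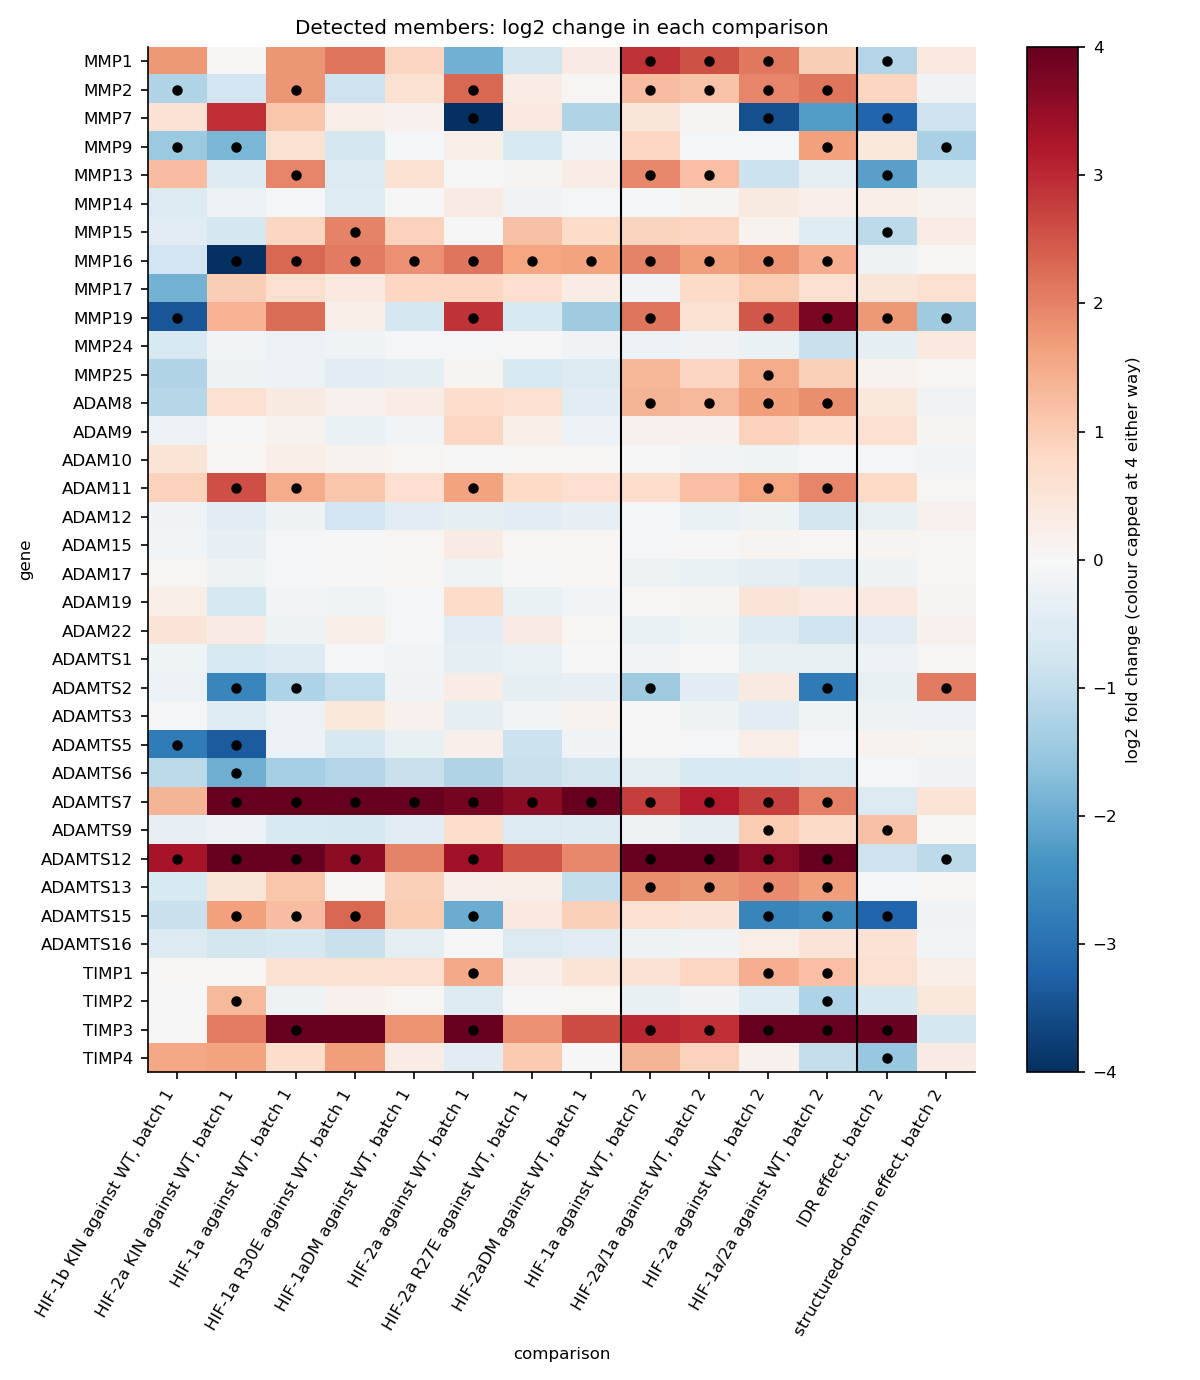
Log2 change of the 36 detected members (rows) in 14 comparisons of batch 1 and batch 2 (columns); colour runs from lower to higher and is capped at 4 log2 units, and a dot marks a called member. ADAMTS7, ADAMTS12 and MMP16 are higher across most columns, whereas MMP14, ADAM10 and ADAM17 carry no dot in the comparisons with WT.

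The HIF-2a line had the most called members in each batch's comparison of a full-length HIF with WT. In batch 1, 12 of 54 tested members were called (10 higher and 2 lower), where 5.73% of all tested genes were called (3.85% higher and 1.88% lower). Every fit that left out 1 library of this batch 1 comparison called fewer than 12, with the range given at the end. In batch 2, 17 of 58 were called (15 higher and 2 lower), where 7.55% of all genes were (5.33% higher and 2.22% lower). The HIF-1a line had 10 called members in batch 1 (9 higher and 1 lower), where 3.78% of all genes were called (3.26% higher and 0.517% lower). The batch 1 count was 5 without WT library 1 and 6 without WT library 2 or 3 or HIF-1a library 2. With HIF-1a in batch 2 there were 11 (10 higher and 1 lower), where 4.39% were (3.91% higher and 0.48% lower). The median log2 change of the tested members with HIF-1a was 0.62 in batch 1 and 0.55 in batch 2, beside -0.04 and 0.03 over all tested genes. With HIF-2a it was 0.07 and 0.37, beside -0.08 and 0.05.

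The batches had separate libraries of every line, WT included. Of the members called with HIF-2a, 11 were called in both batches, all in the same direction, which is 91.7% of the batch 1 calls and 64.7% of the batch 2 calls. They were TIMP1, TIMP3, MMP2, MMP16, MMP19, ADAM11, ADAMTS7, ADAMTS12 and ADAMTS14, all higher, and MMP7 and ADAMTS15, both lower. With HIF-1a, 7 members were called in both batches (70.0% and 63.6% of the calls): TIMP3, MMP2, MMP13, MMP16, ADAMTS7 and ADAMTS12 were higher and ADAMTS2 was lower. Over the 36 detected members, which are not independent of each other, the log2 changes had the same sign in both batches for 32 with HIF-1a (Pearson's r = 0.883) and 31 with HIF-2a (r = 0.908). The like overlap and correlation over all genes are not given here, so this agreement is not shown to be particular to these families.

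**Figure D2:**
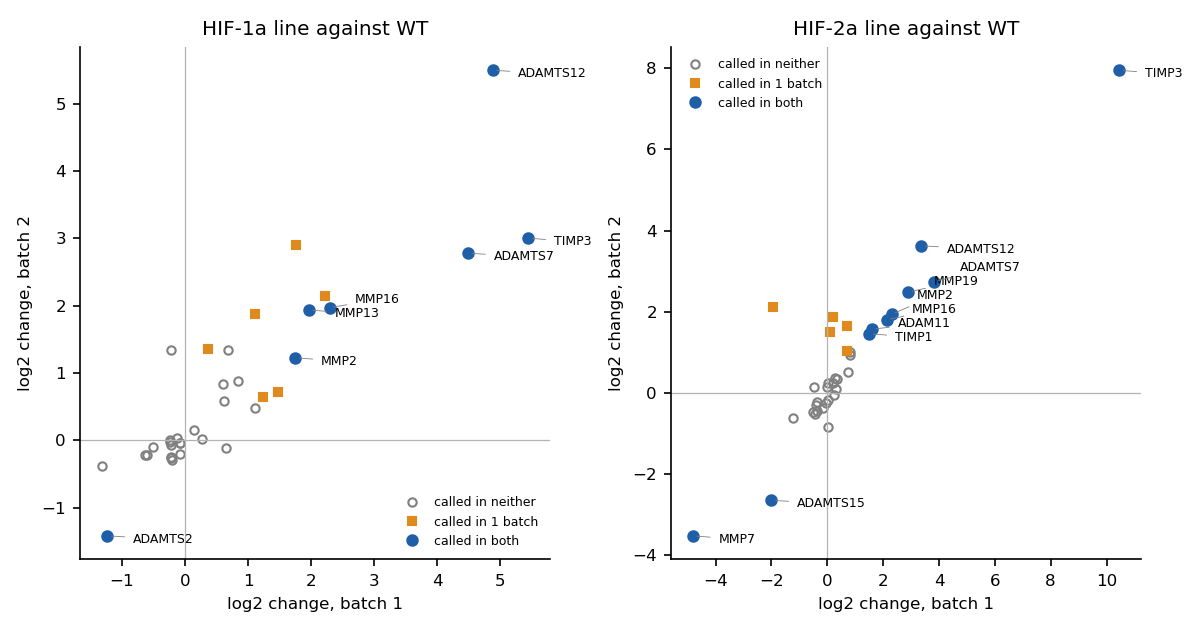
Log2 change against WT in batch 1 (horizontal axis) and batch 2 (vertical axis) of the 36 detected members, for the HIF-1a line (left) and the HIF-2a line (right), with the point style showing a call in both batches, in 1 or in neither. Points gather along the diagonal. All 7 members called in both batches for HIF-1a are shown, and of the 11 for HIF-2a all but ADAMTS14, which was not detected.

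Among the inhibitors, TIMP3 and TIMP1 rose with HIF-2a in both batches, and TIMP3 by the most of all detected members. TIMP3 (chr22:32801705-32863041, hg38, plus strand) had no read in any WT library of batch 1, and 2.54, 2.83 and 2.47 CPM in the HIF-2a libraries. The groups did not overlap, and the level was at least 70.3-fold higher than the floor of 3 counts per library allows for WT (adjusted p = 5.63e-07). In batch 2 WT stood at 0, 0.00902 and 0.0113 CPM and HIF-2a at 1.93, 2.25 and 1.95 CPM, at least 65.5-fold higher (adjusted p = 4.65e-21). TIMP3 is held in the matrix and inhibits ADAM17 and the aggrecanases as well as MMPs, and its gene lies within an intron of SYN3 on the opposite strand, whose reads cannot be told apart in unstranded counts.

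Both DNA-binding and dimerization mutants of HIF-2α left TIMP3 at the floor, with 0, 0.0142 and 0 CPM in HIF-2a R27E and 0, 0.0310 and 0 CPM in HIF-2aDM. HIF-2a was at least 61.2-fold above them (adjusted p = 1.44e-08). HIF-1a gave a far lower level, 0.0848, 0.104 and 0.0538 CPM in batch 1, at least 2.17-fold above the WT floor (adjusted p = 0.00866). That call was lost in each fit that left out 1 of its 6 libraries and without the libraries numbered 3 (adjusted p = 0.0317). In batch 2 HIF-1a gave 0.0758, 0.0764 and 0.0426 CPM (at least 2.08-fold, adjusted p = 0.00118 by edgeR and 0.0114 by DESeq2). So few reads stand behind these HIF-1a values that only the direction, and not the size, was measured.

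TIMP1 (chrX:47582408-47586789, plus strand), a secreted inhibitor of most soluble MMPs that also signals to cells, lies within an intron of SYN1 on the other strand. It stood at 84.5, 82.0 and 91.2 CPM in WT of batch 1 and at 263, 238 and 233 CPM with HIF-2a, a log2 change of 1.51 ± 0.14 (SE, adjusted p = 1.81e-08). The HIF-2a libraries lay above every other library of the batch. Against the 2 HIF-2α mutants the difference was 1.14 ± 0.12 (adjusted p = 6.41e-08). HIF-1a stood at 131, 142 and 125 CPM, with a log2 change of 0.62 ± 0.14 that passed the p threshold at under 2-fold (adjusted p = 0.00427), and its mutants stood at a like level, with means of 130.1 CPM in HIF-1a R30E and 134 in HIF-1aDM. The knock-in clones had means of 88.8 and 89.8 CPM. In batch 2 TIMP1 rose from 60.1, 61.1 and 63.9 CPM in WT to 183, 169.6 and 156 CPM with HIF-2a (1.46 ± 0.06, adjusted p = 7.25e-25).

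TIMP2, the inhibitor that also helps MMP14 to activate pro-MMP2, was lower in both lines with the HIF-2α IDR in batch 2. There it fell from 90.2, 91.7 and 99.0 CPM in WT to 40.3, 41.4 and 37.6 CPM with HIF-1a/2a (log2 change -1.24 ± 0.06, adjusted p = 3.61e-22). HIF-2a stood between, at 66.1, 65.3 and 70.4 CPM, a change under 2-fold (-0.48 ± 0.06, adjusted p = 2.16e-09). None of these groups overlapped WT. Both lines with the HIF-1α IDR together had a mean of 80.4 CPM, also under each WT value, against 53.5 CPM with the HIF-2α IDR. The log2 difference by IDR was under 2-fold (-0.63 ± 0.04, adjusted p = 2.26e-17). In batch 1 the HIF-2a KIN clone was the line that rose, at 370.3, 276 and 281 CPM against 121, 115 and 142 CPM in WT (1.29 ± 0.15, adjusted p = 4.69e-07), whereas HIF-1b KIN had a mean of 126 CPM, equal to that of WT to 3 digits. TIMP4, the least abundant inhibitor and inside an intron of SYN2, was below 1 CPM in every library and was not called against WT in any line by edgeR. It stood at 0.198, 0.128 and 0.212 CPM in WT of batch 1, 0.665, 0.574 and 0.491 CPM in HIF-1a R30E (1.66 ± 0.44, adjusted p = 0.0213) and 0.523, 0.807 and 0.339 CPM in HIF-2a KIN (1.60 ± 0.44, adjusted p = 0.0184). Neither line overlapped WT, and DESeq2 called both (1.71, adjusted p = 0.00319, and 1.65, adjusted p = 0.00326). HIF-1b KIN (1.56 ± 0.44, adjusted p = 0.0486, edgeR) and HIF-2a R27E (1.03 ± 0.44, adjusted p = 0.551, edgeR) also lay above every WT library for TIMP4, without a call. HIF-1a, HIF-1aDM, HIF-2a and HIF-2aDM of batch 1 overlapped WT.

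**Figure D3:**
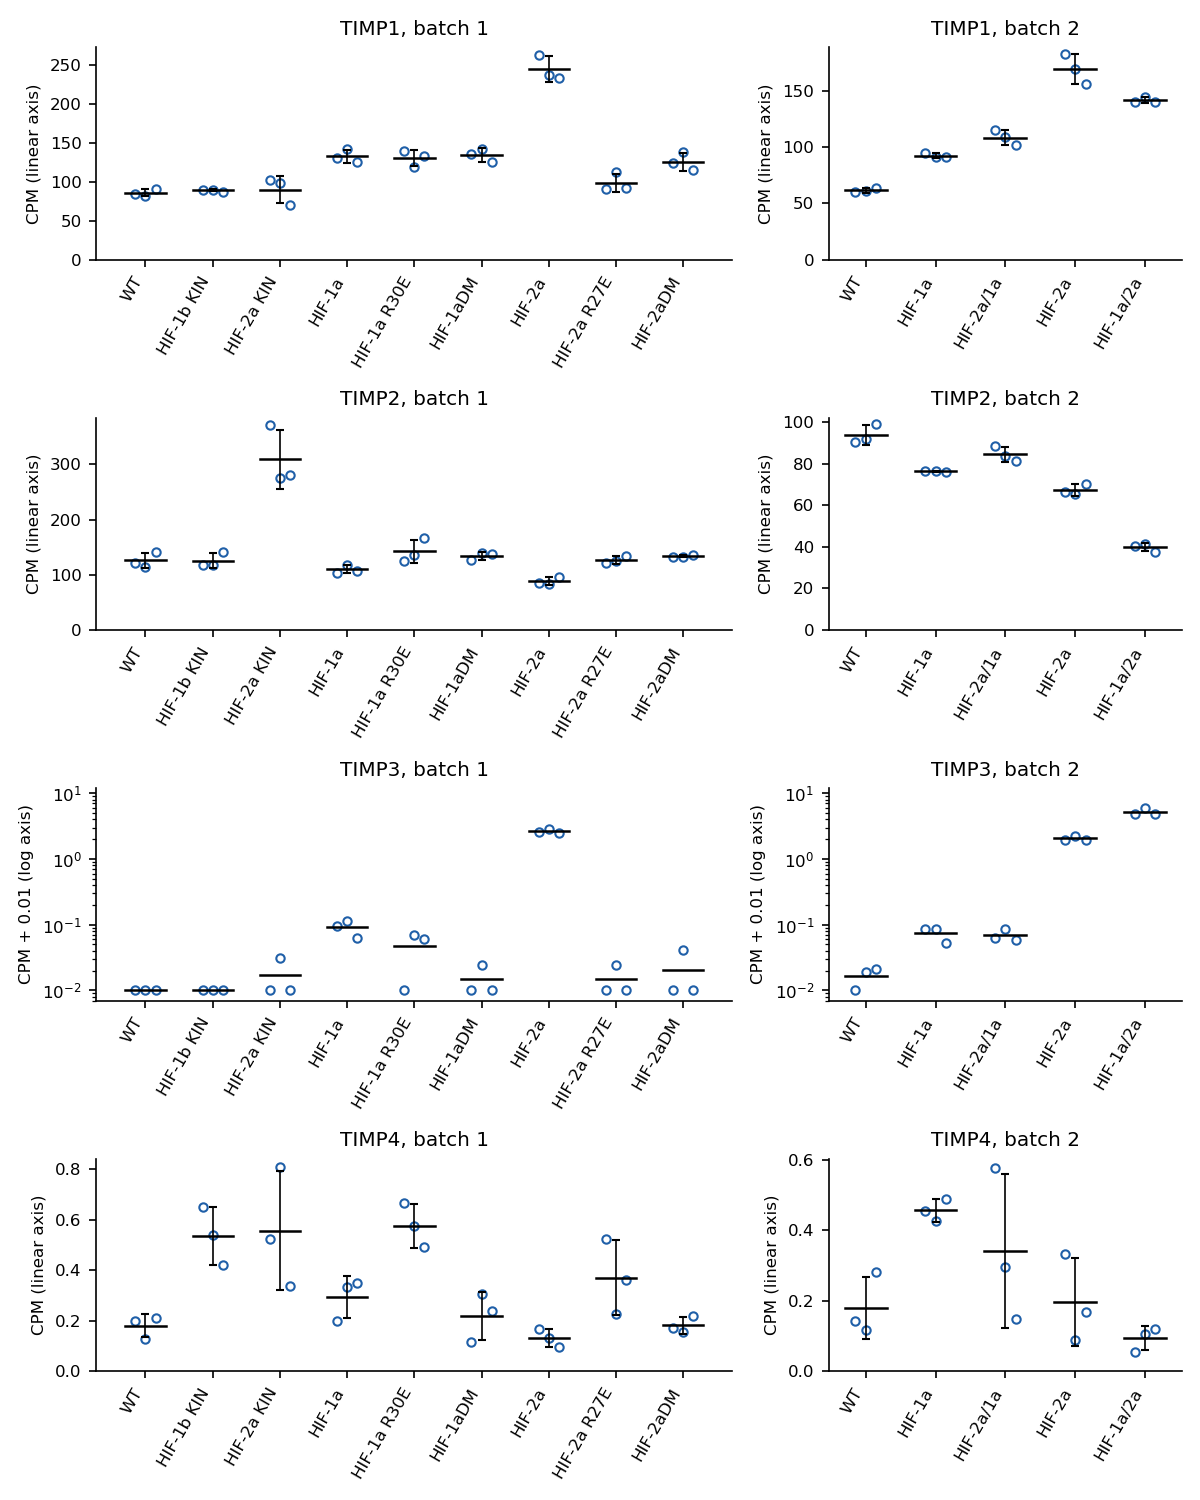
CPM of the 4 TIMPs by line in batch 1 and batch 2 (points, 3 libraries each; line, mean; bars, SD); TIMP3 is on a log axis after adding 0.01 CPM. TIMP3 stands above 1.9 CPM in the HIF-2a libraries of both batches and in HIF-1a/2a, and near the floor elsewhere, and TIMP2 is highest in HIF-2a KIN.

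HIFs bind a short core sequence, written A or G followed by CGTG, so the promoters of a few members are shown with ACGTG and GCGTG on either strand in capitals. The sequences are from RefSeq (GRCh38.p14) and run 250 bases up to the RefSeq gene start in the direction of transcription, which for TIMP1 and ADAMTS12 lies inside the gene as GENCODE places it. TIMP3 and TIMP1 are shown because both rose with HIF-2a, ADAMTS12 because it rose with both HIFs, and ADAMTS2 because it fell with HIF-1a.
TIMP3, chr22:32801455-32801704, plus strand: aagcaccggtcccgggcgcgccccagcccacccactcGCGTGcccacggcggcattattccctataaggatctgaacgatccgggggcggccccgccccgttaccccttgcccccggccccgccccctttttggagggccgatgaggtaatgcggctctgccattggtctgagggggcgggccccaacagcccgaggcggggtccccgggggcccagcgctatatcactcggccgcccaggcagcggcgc
TIMP1, chrX:47582186-47582435, plus strand: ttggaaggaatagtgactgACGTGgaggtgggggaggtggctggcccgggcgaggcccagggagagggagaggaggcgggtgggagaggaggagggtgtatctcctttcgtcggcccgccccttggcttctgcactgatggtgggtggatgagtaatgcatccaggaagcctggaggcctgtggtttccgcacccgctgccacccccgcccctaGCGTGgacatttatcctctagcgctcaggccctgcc
ADAMTS12, chr5:33891991-33892240, minus strand: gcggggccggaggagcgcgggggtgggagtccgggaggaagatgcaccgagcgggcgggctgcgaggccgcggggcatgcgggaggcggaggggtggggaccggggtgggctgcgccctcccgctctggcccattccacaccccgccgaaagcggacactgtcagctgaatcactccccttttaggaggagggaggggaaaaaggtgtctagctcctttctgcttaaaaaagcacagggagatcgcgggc
ADAMTS2, chr5:179345462-179345711, minus strand: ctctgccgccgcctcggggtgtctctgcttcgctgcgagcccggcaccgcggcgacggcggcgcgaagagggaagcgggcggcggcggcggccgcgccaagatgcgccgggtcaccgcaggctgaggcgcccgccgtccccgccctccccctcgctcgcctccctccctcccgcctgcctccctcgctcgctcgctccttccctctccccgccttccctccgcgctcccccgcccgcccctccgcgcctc

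In these windows TIMP3 had 1 match, 213 bases before the RefSeq start, and TIMP1 had 2, at 231 and 36 bases before it. Those of ADAMTS12 and ADAMTS2 had none, which says only that these letters are absent from the stretch shown. The table held 40 promoters of 39 members, each 250 bases before to 50 bases after the start, and 21 of them (52.5%) had either motif, beside 48.4% of all 35116 promoters in it. ACGTG was in 32.5% of the members' promoters and 21.4% of all, and GCGTG in 35.0% and 36.5%. An ACGTG site can overlap its own reverse match on the other strand. MMP2, MMP13 and ADAMTS15 had no entry.

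Of the gelatinases, MMP2 (chr16:55389700-55506691, plus strand), which cuts type IV and denatured collagen, rose with both HIF proteins. In batch 1 it stood at 93.6, 88.9 and 80.3 CPM in WT, 352, 329 and 204 CPM with HIF-1a and 516, 344 and 435 CPM with HIF-2a. Neither HIF line overlapped WT, and the log2 changes were 1.75 ± 0.25 (adjusted p = 1.6e-05) and 2.30 ± 0.25 (adjusted p = 1.82e-07). No mutant line was called for MMP2 against WT. HIF-1a exceeded its mutants by 1.86 ± 0.20 (adjusted p = 2.76e-07) and HIF-2a its own by 2.13 ± 0.20 (adjusted p = 1.03e-08). In batch 2 WT stood at 59.3, 61.2 and 67.2 CPM, HIF-1a at 153, 145 and 141 CPM and HIF-2a at 242, 239 and 239 CPM, with log2 changes of 1.23 ± 0.06 (adjusted p = 3.05e-22) and 1.94 ± 0.06 (adjusted p = 8.65e-30). MMP2 fell in HIF-1b KIN to 32.3, 44.1 and 36.6 CPM (-1.22 ± 0.24, adjusted p = 0.00303), a call that was lost without HIF-1b KIN library 1 (-1.12, adjusted p = 0.0314) or 3, or without WT library 1 or 2.

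MMP9, the other gelatinase, fell in both knock-in clones. WT of batch 1 stood at 8.62, 10.6 and 14.3 CPM, HIF-1b KIN at 3.86, 2.97 and 5.10 CPM (-1.49 ± 0.28, adjusted p = 0.00175) and HIF-2a KIN at 2.40, 2.99 and 4.00 CPM (-1.83 ± 0.29, adjusted p = 6.58e-05). The clones did not overlap WT, although the HIF-1b KIN call was lost without its library 1 or 2 or WT library 3. Full-length HIF-2a was within the range of WT in batch 1 at 10.2, 12.4 and 16.6 CPM (0.23 ± 0.28, adjusted p = 0.653). HIF-1a stood at 12.8, 13.7 and 24.5 CPM (0.61 ± 0.28, adjusted p = 0.218).

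The collagenase MMP13 (chr11:102942995-102955732, minus strand), which cuts fibrillar collagen, rose with HIF-1a and was not called with HIF-2a. WT of batch 1 stood at 1.67, 1.79 and 1.83 CPM and HIF-1a at 8.95, 7.04 and 4.73 CPM, with no overlap (1.97 ± 0.35, adjusted p = 0.000293). HIF-2a stood at 2.50, 1.79 and 1.14 CPM (0.03 ± 0.34, adjusted p = 0.975). HIF-1a exceeded its mutants by 1.92 ± 0.28 (adjusted p = 3.39e-05). HIF-1b KIN lay above WT without overlap, at 5.31, 4.71 and 2.47 CPM (1.24 ± 0.34, adjusted p = 0.0418). It was called with the replicate block (1.19, adjusted p = 0.00759), by DESeq2, without the filter and without the libraries numbered 3. WT of batch 2 had 3.00, 3.31 and 4.78 CPM and HIF-1a 15.1, 14.0 and 13.3 CPM (1.94 ± 0.13, adjusted p = 6.84e-17), whereas HIF-2a lay below WT at 2.29, 1.65 and 2.21 CPM (-0.85 ± 0.14, adjusted p = 1.88e-06, under 2-fold).

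MMP1 (chr11:102789401-102798160, minus strand), the interstitial collagenase, overlaps the antisense gene WTAPP1 and had HIF-2a changes of opposite sign in the 2 batches. In batch 2 it rose from 0.644, 1.15 and 0.855 CPM in WT to 5.36, 4.95 and 9.56 CPM with HIF-1a (2.90 ± 0.36, adjusted p = 1.3e-08) and to 4.71, 3.36 and 3.49 CPM with HIF-2a (2.12 ± 0.36, adjusted p = 5.1e-06). In batch 1 it stood at 0.211, 0.398 and 0.319 CPM in WT, 1.36, 0.725 and 1.06 CPM with HIF-1a (1.76 ± 0.68, adjusted p = 0.129) and 0.238, 0.0221 and 0 CPM with HIF-2a (-1.94 ± 0.83, adjusted p = 0.131). The HIF-2a change in batch 2 minus that in batch 1 was 4.06 ± 0.76 on the log2 scale and did not pass the threshold (adjusted p = 0.0672). By DESeq2, with the replicate block or without the filter on low counts, it was called.

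No detected member was called for a difference between batches in the HIF-1a or HIF-2a response. Of all genes, 0.00374% and 0% were called in these tests, and 8 and 6 of 56 members had an unadjusted p under 0.05 (edgeR). Over all genes, 1140 and 2288 of 26767 had an unadjusted p under 0.05 in these tests (edgeR with RLE size factors). DESeq2 called 1 member for HIF-2a, MMP1.

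MMP7 (chr11:102520508-102530750, minus strand), the matrilysin that cuts many surface and matrix proteins, fell with HIF-2a to the floor. WT of batch 1 stood at 0.781, 1.55 and 0.127 CPM and HIF-2a at 0.0476, 0.0221 and 0.0161 CPM, at least 13.2-fold lower (adjusted p = 0.00328). The WT libraries varied more than 10-fold among themselves, and the call was lost without any 1 of the HIF-2a libraries or WT library 2. WT of batch 2 had 0.0873, 0.144 and 0.383 CPM and HIF-2a 0, 0.0256 and 0.0260 CPM, at least 5.55-fold lower (adjusted p = 0.000614), a call lost without WT library 3 (adjusted p = 0.018). HIF-2a lay below its mutants by at least 11.4-fold (adjusted p = 0.00515). HIF-2a KIN stood at 5.87, 8.73 and 4.06 CPM, above every WT library (2.93 ± 0.75, adjusted p = 0.0103), and was called with the replicate block (3.13, adjusted p = 2.9e-05).

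Among the other secreted MMPs, MMP19, which cuts basement membrane proteins and whose locus overlaps the antisense transcript TMEM198B, rose with HIF-2a. MMP19 in batch 1 was at 0.260, 0.156 and 0.127 CPM in WT, 1.24, 1.39 and 1.43 CPM with HIF-2a (2.89 ± 0.57, adjusted p = 0.000762) and 0.989, 0.642 and 0.915 CPM with HIF-1a (2.22 ± 0.56, adjusted p = 0.0113, and 2.27, adjusted p = 0.00138 with the replicate block). Both lines lay above every WT library. HIF-1a exceeded its mutants by 2.46 ± 0.46 (adjusted p = 0.000956) and HIF-2a its own by 3.91 ± 0.48 (adjusted p = 9.92e-07). MMP19 in batch 2 was at 0.175, 0.0992 and 0.236 CPM in WT, 0.520, 0.578 and 1.13 CPM with HIF-1a (2.15 ± 0.36, adjusted p = 7.18e-06) and 0.711, 0.728 and 1.39 CPM with HIF-2a (2.48 ± 0.36, adjusted p = 1.74e-07). HIF-1b KIN fell to 0.0162, 0.0318 and 0 CPM, at least 4.04-fold below WT (adjusted p = 0.00924), a call lost in each fit without 1 library and without the libraries numbered 3 (adjusted p = 0.0604).

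The membrane-type MMPs differed in their response. MMP14 stood at 1008, 1065 and 1224 CPM in WT of batch 1 and at 1347, 1245 and 1577 CPM with HIF-2a (0.34 ± 0.17, adjusted p = 0.197), and in batch 2 the change was also 0.34 ± 0.05 (adjusted p = 2.1e-07), under 2-fold. MMP16 was far less abundant, with 0.681, 0.540 and 0.680 CPM in WT of batch 1. It rose to 2.52, 2.88 and 3.95 CPM with HIF-1a (2.29 ± 0.29, adjusted p = 3.69e-06) and 2.66, 3.40 and 2.27 CPM with HIF-2a (2.13 ± 0.29, adjusted p = 6.36e-06). It also rose in the 4 mutant lines, by 1.58 to 2.08 on the log2 scale, with means of 2.70 CPM in HIF-1a R30E, 2.27 in HIF-1aDM, 1.90 in HIF-2a R27E and 1.95 in HIF-2aDM. Neither active HIF differed from its mutants past the threshold for MMP16 (HIF-1a 0.33 ± 0.23, adjusted p = 0.584, and HIF-2a 0.53 ± 0.24, adjusted p = 0.168). The HIF-2a KIN clone went the other way, at 0.0387, 0.0212 and 0.0376 CPM, at least 11.9-fold below WT (adjusted p = 6.74e-08).

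In batch 2, MMP16 rose from 1.81, 1.60 and 1.31 CPM in WT to 6.07, 6.42 and 6.02 CPM with HIF-1a (1.97 ± 0.14) and 5.51, 4.88 and 6.05 CPM with HIF-2a (1.80 ± 0.14), with adjusted p of 5.07e-16 and 4.54e-15. MMP15, another membrane-type MMP, rose in HIF-1a R30E, the only line called against WT, from 9.47, 6.72 and 10.2 CPM in WT to 33.1, 26.6 and 45.0 CPM (1.99 ± 0.27, adjusted p = 1.08e-05). HIF-2a R27E stood at 16.0, 14.2 and 29.8 CPM (1.18 ± 0.26, adjusted p = 0.0186), which was called with the replicate block (1.15). HIF-1a, HIF-1aDM and HIF-2aDM of batch 1 also lay above every WT library, under 2-fold (0.85, 0.92 and 0.73, adjusted p = 0.041, 0.119 and 0.361). HIF-2a (0.0018) and HIF-1b KIN (-0.45) overlapped WT there. In batch 2, MMP15 was called higher in HIF-1a and HIF-2a/1a without WT library 3 (1.18 and 1.17). MMP25, a lipid-anchored MMP whose locus has an antisense gene, was called with HIF-2a in batch 2 at 0.422, 0.383 and 0.558 CPM against 0.109, 0.189 and 0.180 CPM in WT (1.50 ± 0.42, adjusted p = 0.00341), and the call was lost without HIF-2a library 3 or WT library 1. Its HIF-2a change in batch 1 was 0.11 ± 0.59 (adjusted p = 0.942). MMP17, the other lipid-anchored MMP, stood at 0.681, 0.639 and 0.913 CPM in WT of batch 1 and 0.114, 0.286 and 0.204 CPM in HIF-1b KIN, below every WT library (-1.88 ± 0.50, adjusted p = 0.0336). It was called with the replicate block (-1.87, adjusted p = 0.00668), by DESeq2 (adjusted p = 0.00516) and without the filter (adjusted p = 0.00299).

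ADAMTS7 and ADAMTS12, related enzymes that cut cartilage oligomeric matrix protein, rose in most altered lines. ADAMTS7 (chr15:78759206-78811464, minus strand, beside MORF4L1 on the other strand) stood at 0.223, 0.0994 and 0.127 CPM in WT of batch 1, 3.41, 3.91 and 2.96 CPM with HIF-1a (4.49 ± 0.45, adjusted p = 8.99e-08) and 2.43, 1.35 and 2.75 CPM with HIF-2a (3.84 ± 0.45, adjusted p = 5.46e-07). The mutants rose as well, by 5.01 ± 0.46 in HIF-1a R30E, 4.24 ± 0.45 in HIF-1aDM, 3.62 ± 0.45 in HIF-2a R27E and 4.08 ± 0.45 in HIF-2aDM (adjusted p from 2.71e-08 to 1.69e-05). The active forms and the mutants overlapped, with differences of -0.14 ± 0.32 for HIF-1a (adjusted p = 0.917) and -0.01 ± 0.33 for HIF-2a. HIF-2a KIN, which carries no transgene, stood at 2.61, 1.64 and 3.35 CPM (4.06 ± 0.45, adjusted p = 3.76e-07), and HIF-1b KIN at 0.454, 0.350 and 0.370 CPM (1.37 ± 0.45, adjusted p = 0.12). In batch 2 ADAMTS7 rose by 2.78 ± 0.29 with HIF-1a and 2.74 ± 0.29 with HIF-2a (adjusted p = 9.21e-11 and 6.47e-11).

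ADAMTS12 (chr5:33523535-33892019, minus strand) stood at 0.198, 0.0426 and 0.106 CPM in WT of batch 1, 3.79, 3.40 and 3.31 CPM with HIF-1a (4.88 ± 0.58, adjusted p = 1.29e-06) and 1.40, 1.22 and 1.04 CPM with HIF-2a (3.36 ± 0.56, adjusted p = 9.8e-05). Every HIF-1a library lay above all others of the batch, by a small margin over HIF-2a KIN (3.23, 3.04 and 1.48 CPM). Against its mutants HIF-1a was higher by 2.11 ± 0.40 (adjusted p = 0.000956), although HIF-1a R30E itself stood at 1.05, 1.84 and 1.31 CPM, above WT by 3.56 ± 0.56 (adjusted p = 0.000102). The dimerization mutants and HIF-2a R27E were not called (1.97 in HIF-1aDM, 1.93 in HIF-2aDM and 2.52 in HIF-2a R27E, adjusted p = 0.121, 0.144 and 0.0195), the last until the replicate block (2.41). HIF-2a exceeded its mutants by 1.14 ± 0.42 (adjusted p = 0.077), which was called with the replicate block (1.21, adjusted p = 0.0096). In batch 2 it rose from 0.0655, 0.117 and 0.0113 CPM in WT to 2.71, 2.92 and 3.76 CPM with HIF-1a (5.50 ± 0.33, adjusted p = 7.52e-18) and 0.878, 0.485 and 1.21 CPM with HIF-2a (3.63 ± 0.36, adjusted p = 1.75e-11).

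The proteoglycanase ADAMTS15 (chr11:130448645-130476645, plus strand), which cuts versican and aggrecan, fell with HIF-2a and rose in HIF-1a R30E, HIF-2a KIN and, in batch 1, HIF-1a. In batch 1 it stood at 8.71, 8.96 and 10.9 CPM in WT and at 2.02, 2.21 and 2.89 CPM with HIF-2a (-2.00 ± 0.30, adjusted p = 1.92e-05). HIF-2a lay below its mutants (log2 difference -2.68 ± 0.28, adjusted p = 8.22e-08), with HIF-2a R27E at 9.10, 10.9 and 17.7 CPM and HIF-2aDM at 14.8, 21.6 and 19.3 CPM. HIF-1a R30E rose to 34.4, 46.7 and 58.6 CPM (2.29 ± 0.29, adjusted p = 4.8e-06) and HIF-2a KIN to 35.1, 25.3 and 28.0 CPM (1.63 ± 0.28, adjusted p = 0.000223). HIF-1a stood at 17.3, 30.8 and 19.2 CPM (1.23 ± 0.28, adjusted p = 0.0044), lost without HIF-1a library 2 (0.94, adjusted p = 0.0628) or any 1 WT library. In batch 2 HIF-2a fell again, from 2.77, 3.17 and 4.51 CPM in WT to 0.489, 0.485 and 0.701 CPM (-2.64 ± 0.19, adjusted p = 1.88e-15).

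ADAMTS5, an aggrecanase of cartilage, fell in both knock-in clones. It stood at 16.4, 11.8 and 13.7 CPM in WT, 2.30, 1.46 and 2.32 CPM in HIF-1b KIN (-2.78 ± 0.22, adjusted p = 2.72e-09) and 1.39, 1.13 and 1.63 CPM in HIF-2a KIN (-3.33 ± 0.23, adjusted p = 1.16e-10). All other groups of both batches had means between 7.75 and 16.2 CPM. The lowest was HIF-2a R27E at 7.57, 6.49 and 9.19 CPM, below every WT library of its batch (-0.85 ± 0.21, adjusted p = 0.0406). ADAMTS6 fell in HIF-2a KIN from 4.35, 4.06 and 3.39 CPM in WT to 0.639, 1.32 and 1.08 CPM (-1.96 ± 0.37, adjusted p = 0.000571). It lay below every WT library with HIF-1a too, at 1.57, 0.870 and 2.26 CPM (-1.32 ± 0.36, adjusted p = 0.0186), and with HIF-2a, at 1.45, 1.88 and 1.75 CPM (-1.21 ± 0.36, adjusted p = 0.0226). Both were called with the replicate block (-1.30 and -1.20, adjusted p = 0.00558 and 0.00758).

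ADAMTS2 (chr5:179110853-179345461, minus strand), which removes the N-propeptide of fibrillar procollagens, fell with HIF-1a. In batch 1 it stood at 12.7, 8.16 and 12.6 CPM in WT and 4.42, 3.81 and 6.05 CPM with HIF-1a (-1.23 ± 0.30, adjusted p = 0.00713). The call was lost without HIF-1a library 1 or 2 or WT library 1 or 3 (-1.09 to -1.18) and fell just short without the libraries numbered 3 (-1.31, adjusted p = 0.01003). HIF-2a KIN fell further, to 2.28, 0.913 and 2.28 CPM (-2.60 ± 0.31, adjusted p = 1.38e-06). In batch 2 HIF-1a stood at 2.69, 2.73 and 2.31 CPM against 6.74, 6.47 and 7.44 CPM in WT (-1.42 ± 0.13, adjusted p = 2.34e-12). ADAMTS14, of the same procollagen N-proteinase group and not among the detected members, was called with HIF-2a in both batches, at 0.143, 0 and 0.305 CPM in batch 1 (at least 4.01-fold above WT, adjusted p = 0.00813, groups overlapping) and 0.0556, 0.153 and 0.156 CPM in batch 2 (at least 3.90-fold, adjusted p = 0.00563). The batch 1 call was lost without the libraries numbered 3 (adjusted p = 0.106).

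Of the ADAMs, the sheddases ADAM10 and ADAM17 changed little. With HIF-2a in batch 2, ADAM10 had a mean of 191 ± 7.65 CPM against 214 ± 9.06 in WT and ADAM17 39.4 ± 0.374 against 50.6 ± 1.19 (SD, n = 3), and ADAM9 388 ± 22.2 against 204 ± 10.8, just under 2-fold (log2 change 0.93 ± 0.06, adjusted p = 1.83e-17). ADAM11, a catalytically inactive member known from the nervous system, was called higher with HIF-2a in both batches and with HIF-1a in batch 1. It stood at 0.322, 0.327 and 0.467 CPM in WT of batch 1, 1.24, 1.08 and 1.09 CPM with HIF-2a (1.60 ± 0.34, adjusted p = 0.00162) and 2.54, 1.93 and 2.31 CPM in HIF-2a KIN (2.59 ± 0.35, adjusted p = 6.56e-06). With HIF-1a its batch 1 mean was 1.05 CPM (1.48 ± 0.34, adjusted p = 0.00483). HIF-2a R27E and HIF-2aDM lay above WT by 0.80 ± 0.34 and 0.67 ± 0.34 (adjusted p = 0.538 and 0.63). ADAM11 was not called for HIF-2a against these mutants. In batch 2 ADAM11 rose from 0.251, 0.198 and 0.158 CPM in WT to 0.767, 0.690 and 0.350 CPM with HIF-2a (1.57 ± 0.39, adjusted p = 0.00116). ADAM8 rose in all 4 lines of batch 2, by 1.29 to 1.85 on the log2 scale from a WT mean of 0.224 CPM, as did ADAMTS13, which cuts von Willebrand factor and overlaps REXO4, by 1.67 to 1.88 from 0.309 CPM. Neither was called with HIF-1a or HIF-2a in batch 1. There ADAM8 changed by 0.36 ± 0.71 and 0.70 ± 0.71 (adjusted p = 0.863 and 0.585). ADAMTS13 changed by 1.11 ± 0.47 and 0.19 ± 0.47 (adjusted p = 0.172 and 0.854).

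The clones and mutants can be set beside these by their counts. In HIF-1b KIN, 5 members were called (1 higher and 4 lower), where 1.37% of all genes were (0.393% higher and 0.978% lower), namely ADAMTS12, MMP2, MMP9, MMP19 and ADAMTS5. ADAMTS12 was the higher one, at 1.28, 1.35 and 0.905 CPM (3.31 ± 0.56, adjusted p = 0.000425). This count was 2 without HIF-1b KIN library 1 and 3 without any other of the 6 libraries. In HIF-2a KIN, 10 were called (5 higher and 5 lower), where 4.11% of all genes were (2.29% higher and 1.82% lower), with TIMP2, ADAMTS7, ADAMTS12, ADAMTS15 and ADAM11 higher and MMP9, MMP16, ADAMTS2, ADAMTS5 and ADAMTS6 lower.

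HIF-1a R30E had 5 called members, all higher, MMP15, MMP16, ADAMTS7, ADAMTS12 and ADAMTS15, where 2.61% of all genes were called (2.03% higher and 0.581% lower). HIF-1aDM (0.431% of all genes called, 0.427% higher and 0.00427% lower), HIF-2a R27E (0.483%, 0.436% and 0.047%) and HIF-2aDM (0.47%, 0.436% and 0.0342%) each had 2, MMP16 and ADAMTS7, both higher. With the replicate block HIF-2a R27E had 4, without WT library 1, 2 or 3 it had 1, and in a fit of only the groups compared it had 0 (MMP16 adjusted p = 0.0975 and ADAMTS7 adjusted p = 0.0201, edgeR). HIF-2aDM had 1 without any 1 WT library, without its own library 3 or without all libraries numbered 3 (MMP16 adjusted p = 0.0393), and HIF-1aDM 1 without WT library 2. Directly against the mutants, 4 members were called with HIF-1a, all higher (1.87% of all genes called, 1.72% higher and 0.15% lower), MMP2, MMP13, MMP19 and ADAMTS12. With HIF-2a, 9 were called against its mutants (4.69% of all genes, 3.01% higher and 1.68% lower), with TIMP1, TIMP3, MMP2, MMP19, MMP28, ADAMTS9 and ADAMTS10 higher, and MMP7 and ADAMTS15 lower. MMP28 rested on HIF-2a library 1, at 0.571 CPM beside 0.0884 and 0.0964 in the others (4.15 ± 1.03, adjusted p = 0.00668, and 2.72, adjusted p = 0.181 without it). ADAMTS10, which had no read in WT, rose with HIF-1a to 0.297, 0.352 and 0.323 CPM (at least 8.70-fold, adjusted p = 0.00303, and 0.0197 without the libraries numbered 3). With HIF-2a ADAMTS10 stood at 0.166, 0.177 and 0.0804 CPM, and its calls against WT (adjusted p = 0.00826) and against the mutants (adjusted p = 0.00268) were both lost without the libraries numbered 3 (adjusted p = 0.035 and 0.0158).

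**Figure D4:**
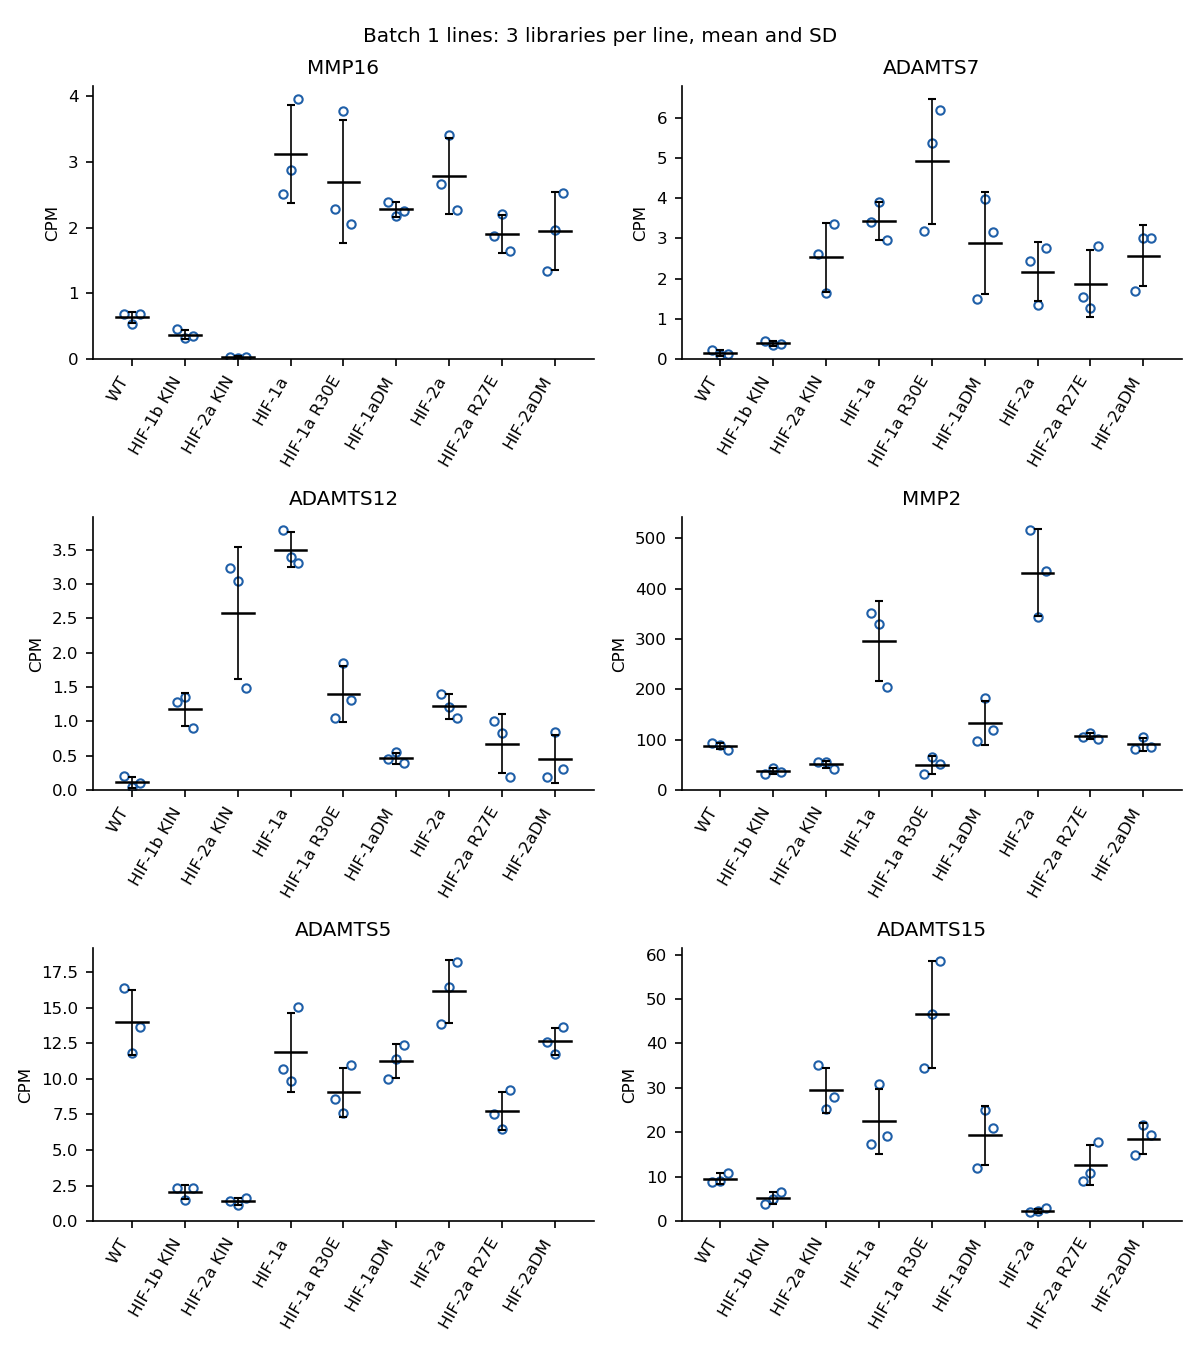
CPM of MMP16, ADAMTS7, ADAMTS12, MMP2, ADAMTS5 and ADAMTS15 in the 9 lines of batch 1 (points, 3 libraries each; line, mean; bars, SD). MMP16 and ADAMTS7 are raised in active and mutant HIF lines alike, MMP2 stands highest with HIF-2a and HIF-1a, ADAMTS5 is low in both knock-in clones, and ADAMTS15 is lowest with HIF-2a.

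The domain swaps of batch 2 asked whether a response went with the structured N-terminal part or with the IDR. Each construct was present there as a single line, and summed HIF subunit RNA ran from 180 to 748 CPM in that batch. The domain, the line and the transgene level therefore cannot be told apart. HIF-2a/1a had 9 called members against WT (9 higher), where 3.48% of all genes were called (2.96% higher and 0.529% lower). HIF-1a/2a had 15 (12 higher and 3 lower), where 7.72% were (4.98% higher and 2.74% lower). The IDR effect compared HIF-2a and HIF-1a/2a, averaged on the log2 scale, with the average of HIF-1a and HIF-2a/1a, and was called for 10 of 58 members (4.41% of all genes). With the HIF-2α IDR 4 of them were higher (1.87% of all genes) and 6 lower (2.55%). The structured-domain effect, built in the same way from the N-terminal part, was called for 4 (1.04% of all genes), 1 higher (0.324%) and 3 lower (0.717%). The interaction of both was called for 1, which was higher (1.18% of all genes called, 0.888% higher and 0.296% lower).

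TIMP3 was high in both lines with the HIF-2α IDR, at 1.93, 2.25 and 1.95 CPM in HIF-2a and 4.77, 5.99 and 4.88 CPM in HIF-1a/2a. It stayed near the floor with the HIF-1α IDR, at 0.0758, 0.0764 and 0.0426 CPM in HIF-1a and 0.0526, 0.0768 and 0.0495 CPM in HIF-2a/1a. The IDR effect was 5.67 ± 0.20 (adjusted p = 1.49e-26), with no overlap between the pairs of lines. TIMP1 was higher in both lines with the HIF-2α IDR, at 140.2, 145 and 141 CPM in HIF-1a/2a beside the batch 2 HIF-2a values above. Unlike TIMP3, it stood higher in HIF-2a than in HIF-1a/2a. HIF-2a/1a stood at 115, 109 and 102 CPM, and the mean over both lines with the HIF-1α IDR was 101 CPM. The IDR effect on TIMP1 was under 2-fold (0.63 ± 0.04, adjusted p = 1.66e-17). ADAMTS9, a proteoglycanase with an antisense gene at its locus, stood at 161, 173 and 144 CPM in HIF-2a and 144, 137 and 118 CPM in HIF-1a/2a, against 68.5, 62.3 and 72.5 CPM in HIF-1a and 60.9, 58.3 and 65.1 CPM in HIF-2a/1a (1.18 ± 0.05, adjusted p = 1.72e-24).

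MMP13, ADAMTS15, MMP7 and MMP15 were lower with the HIF-2α IDR. MMP13 stood at 8.48, 9.00 and 8.12 CPM in HIF-2a/1a, between WT and HIF-1a, and at 2.97, 2.78 and 2.88 CPM in HIF-1a/2a, with an IDR effect of -2.17 ± 0.09 (adjusted p = 1.37e-23). ADAMTS15 stood at 5.12, 5.42 and 4.48 CPM in HIF-2a/1a and at 0.600, 0.555 and 0.674 CPM in HIF-1a/2a, with an IDR effect of -3.16 ± 0.14 (adjusted p = 1.3e-23). For both genes the lines sorted by IDR without overlap. MMP7 stood at 0.118, 0.297 and 0.235 CPM in HIF-2a/1a and 0.0923, 0.0132 and 0.0120 CPM in HIF-1a/2a (-3.16 ± 0.55, adjusted p = 6.32e-06). MMP15 stood at 6.74, 7.31 and 8.17 CPM in HIF-1a, 7.97, 6.68 and 7.33 CPM in HIF-2a/1a, 4.40, 3.64 and 5.28 CPM in HIF-2a and 2.39, 3.25 and 2.97 CPM in HIF-1a/2a (-1.05 ± 0.11, adjusted p = 4.62e-11), with the change just under 2-fold without HIF-1a/2a library 1 (-0.97), HIF-2a library 2 (-0.98) or HIF-1a library 3.

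For the remaining 4 calls of the IDR effect the pairs of lines overlapped. MMP19 stood at 1.82, 2.35 and 2.76 CPM in HIF-1a/2a and at 0.131, 0.317 and 0.309 CPM in HIF-2a/1a, with an IDR effect of 1.75 ± 0.23 (adjusted p = 1.9e-08). It also had a structured-domain effect of -1.41 ± 0.23 (adjusted p = 5.69e-06). MMP1 stood at 0.139, 2.55 and 2.72 CPM in HIF-1a/2a and 4.48, 5.04 and 6.22 CPM in HIF-2a/1a (-1.18 ± 0.23, adjusted p = 5.54e-05), and the change was under 2-fold without HIF-1a/2a library 1 (-0.87). TIMP4 (-1.53 ± 0.36, adjusted p = 0.000732) ranged from 0.0554 to 0.120 CPM in HIF-1a/2a and from 0.148 to 0.579 CPM in HIF-2a/1a. ADAM18, a gene of the testis and not among the detected members, stood at 0.0667, 0.0639 and 0.234 CPM in HIF-2a (3.74 ± 1.04, adjusted p = 0.00412).

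The structured-domain effect was also called for ADAMTS2, MMP9 and ADAMTS12. ADAMTS2 stood at 9.37, 8.21 and 8.89 CPM in HIF-2a and 4.72, 4.36 and 5.90 CPM in HIF-2a/1a, against 2.69, 2.73 and 2.31 CPM in HIF-1a and 0.859, 0.925 and 1.16 CPM in HIF-1a/2a. Both lines with the HIF-2α structured part thus lay above both with that of HIF-1α (2.06 ± 0.10, adjusted p = 3.2e-21). The difference by IDR had opposite signs on the 2 backgrounds: the HIF-2α IDR went with a higher level beside the HIF-2α structured part and a lower level beside that of HIF-1α, an interaction of 2.22 ± 0.19 (adjusted p = 1.11e-11).

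MMP9 stood at 9.82, 11.0 and 10.8 CPM in HIF-1a and 16.5, 20.6 and 17.9 CPM in HIF-1a/2a, against 5.97, 5.72 and 5.65 CPM in HIF-2a and 5.89, 5.89 and 5.07 CPM in HIF-2a/1a. The structured-domain effect was -1.29 ± 0.07 (adjusted p = 3.94e-19), and the lines with the HIF-2α structured part lay within the spread of WT (6.28, 5.99 and 5.51 CPM) or just below it. MMP9 also had an IDR effect under 2-fold (0.42 ± 0.07, adjusted p = 2.49e-06). ADAMTS12 stood at 1.47, 1.58 and 1.48 CPM in HIF-2a/1a and 1.70, 1.93 and 1.72 CPM in HIF-1a/2a, between HIF-2a and HIF-1a. Its structured-domain effect was -1.05 ± 0.17 (adjusted p = 4.89e-06), and was under 2-fold without HIF-1a library 3 (-0.96) or HIF-2a library 2 (-0.90). The IDR effect on ADAMTS12 was of a like size, -0.82 ± 0.17 (adjusted p = 9.87e-05), and under 2-fold, so its level went with both parts.

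MMP2, MMP16 and ADAMTS7 rose in all 4 HIF lines of batch 2, whichever the domains. MMP2 stood at 144, 143 and 131 CPM in HIF-2a/1a and 261, 278 and 289.8 CPM in HIF-1a/2a, with an IDR effect of 0.85 ± 0.04 that was under 2-fold. MMP16 stood at 5.43, 5.22 and 4.44 CPM in HIF-2a/1a (1.68 ± 0.14) and 4.64, 3.78 and 4.33 CPM in HIF-1a/2a (1.44 ± 0.14). ADAMTS7 stood at 2.17, 1.73 and 1.38 CPM in HIF-2a/1a (3.13 ± 0.28) and 0.656, 1.12 and 0.662 CPM in HIF-1a/2a (2.01 ± 0.29). All these lines lay above WT without overlap.

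**Figure D5:**
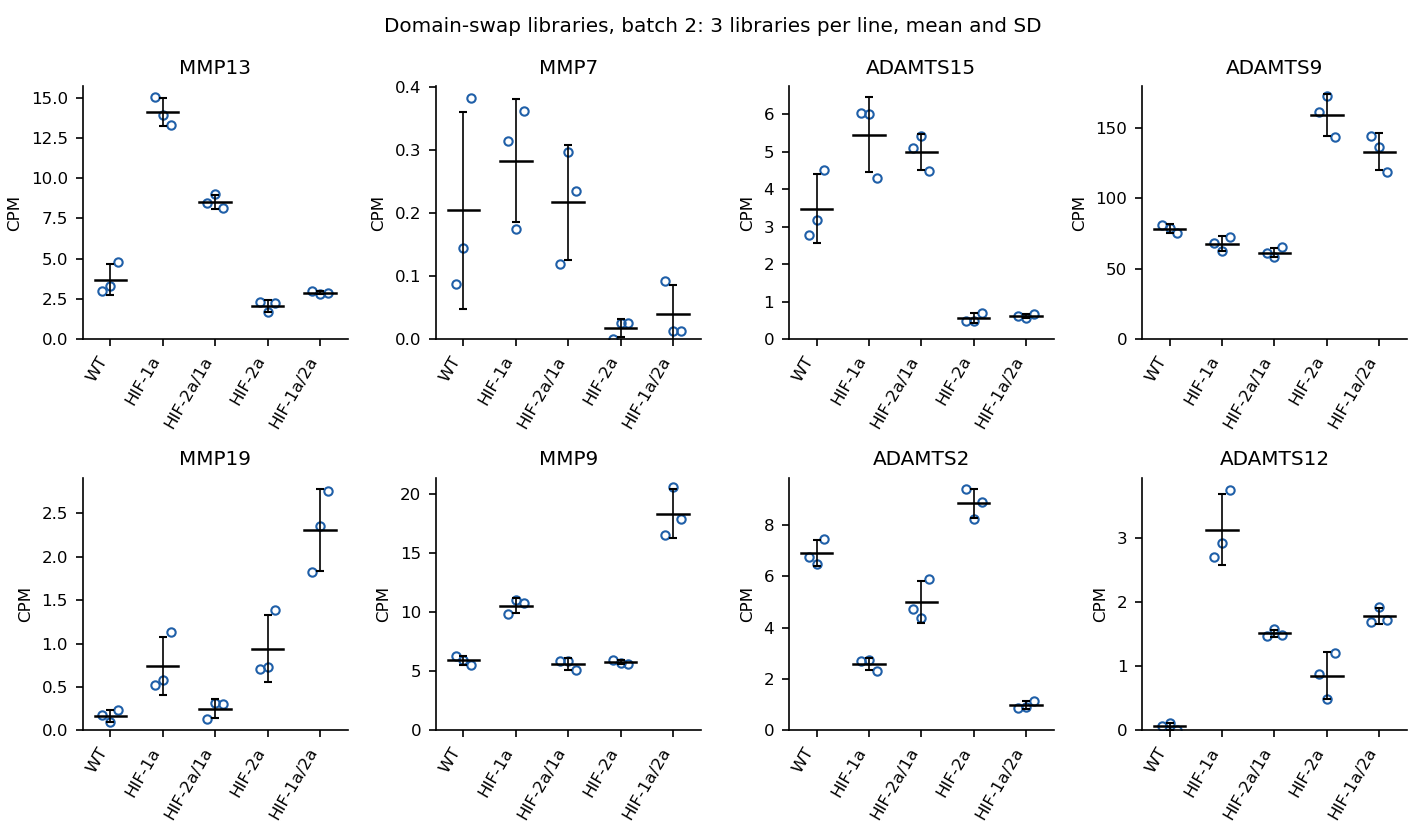
CPM of MMP13, MMP7, ADAMTS15, ADAMTS9, MMP19, MMP9, ADAMTS2 and ADAMTS12 in the 5 lines of batch 2 (points, 3 libraries each; line, mean; bars, SD). MMP13, ADAMTS15 and ADAMTS9 sort by the IDR of the line, whereas ADAMTS2 and MMP9 sort by its structured part.

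Summed over each family, the MMPs made up 1470 ± 158 CPM in WT of batch 1 (SD, n = 3), 2102 ± 260.5 CPM with HIF-2a and 969.7 ± 116 CPM in HIF-1b KIN. The TIMPs summed to 212 ± 19.0 CPM in WT, 336 ± 14.6 CPM with HIF-2a and 399 ± 64.5 CPM in HIF-2a KIN. In batch 2 the MMPs summed to 838 ± 9.75 CPM in WT and 1173 ± 33.9 CPM with HIF-2a, and the TIMPs to 156 ± 6.73 and 239 ± 11.5 CPM. The largest parts of the MMP sums in these batch 1 groups were MMP14, MMP24 and MMP2. Their means were 1099, 258 and 87.6 CPM in WT and 1390, 251 and 432 CPM with HIF-2a. TIMP1 and TIMP2 went opposite ways within the TIMP sum, with batch 1 means of 85.9 and 126 CPM in WT and 244.7 and 88.5 CPM with HIF-2a. These sums were not tested.

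Genes around the proteases came from lists of matrix substrates, activators and partners. Of 16 matrix substrates, 12 could be tested in batch 1 and 13 in batch 2, and with HIF-2a 6 and 7 of them were called, all lower (1.88% and 2.22% of all genes were called lower). FN1, fibronectin, changed by -2.33 ± 0.33 on the log2 scale in batch 1 (adjusted p = 1.23e-05) and -2.21 ± 0.05 in batch 2 (adjusted p = 1.07e-34). LUM, the proteoglycan lumican, which is also on the fibroblast marker list, changed by -4.52 ± 0.74 and -3.53 ± 0.39, and BCAN, brevican, by -1.14 ± 0.22 and -1.38 ± 0.24. With HIF-1a, 1 substrate was higher and 3 lower in batch 1 (3.26% and 0.517% of all genes) and 1 was higher and 2 lower in batch 2 (3.91% and 0.48%). The IDR effect was called for 5 of 13 substrates, all lower with the HIF-2α IDR (2.55% of all genes), FN1 among them (-1.73 ± 0.03, adjusted p = 1.04e-36).

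Of 10 activation and clearance genes, LRP1, the receptor that takes up several of these enzymes and their complexes with TIMPs, rose with HIF-1a (1.96 ± 0.23 and 1.62 ± 0.09 in batch 1 and 2) and HIF-2a (2.18 ± 0.23 and 2.13 ± 0.09). PCSK6, a proprotein convertase, rose with HIF-2a (4.26 ± 0.37 and 3.23 ± 0.19) and fell in HIF-1b KIN and HIF-2a KIN (-4.84 ± 0.50 and -4.11 ± 0.48). These were the only called members of that list with HIF-2a, and LRP1 the only one with HIF-1a, against WT in either batch. Of 9 partners of ADAM10 and ADAM17, TSPAN15, a tetraspanin that guides ADAM10, rose with HIF-1a (1.64 ± 0.19 and 1.31 ± 0.13) and had an IDR effect of -1.96 ± 0.10 (adjusted p = 2.7e-21). Of 7 ADAMTS-like genes, which encode relatives without a protease domain, ADAMTSL1 rose with HIF-1a in both batches (1.34 ± 0.18 and 1.53 ± 0.08) and ADAMTSL5 with HIF-2a in both (1.24 ± 0.24 and 1.37 ± 0.10).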

How the data were processed

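PolyA RNA-seq gene counts of 42 libraries were used. The authors aligned reads to hg38 with STAR, keeping unique alignments, and counted them per GENCODE v32 gene with HTSeq without strand. The submitters' processing notes list STAR 2.7, HTSeq 0.11.1 and SAMtools 1.9. The deposited values are raw counts per gene, with no normalization, and unassigned reads were left out of the library totals. The sources call the 3 libraries of a line biological replicates without saying that they came from separate cultures, so p-values measure only the spread between these samples.

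Groups came from the sample titles. Counts were fitted with edgeR 4.0.16 (limma 3.58.1, R 4.3.3; TMM, quasi-likelihood test), with 1 fit per batch and 1 joint fit of the WT, HIF-1a and HIF-2a libraries for batch differences. Only genes reaching 0.5 normalized counts on average over the batch were tested, and the thresholds (adjusted p of at most 0.01, 2-fold) are those of the study's methods. The same script was tested on simulated data. Gene positions and exon lengths are from GENCODE v44 on the same build. Genes at or under 3 counts in a group got a bound in place of a fold change. Values from the alternative fits are an exception. Such log2 changes, as for ADAMTS14 and MMP11 with HIF-1a where WT was at this floor, give the direction and not a measured size.

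In batch 1, libraries with the same number deviated together (correlation with WT deviations 0.110 to 0.835 per line), so the number was taken to pair them there, and a fit with the number as a block (the replicate block) is given where it changed a call of batch 1. Alternatives were DESeq2 1.42.0, RLE size factors, no filter, only the groups compared, the replicate block and leaving out each library. Leaving out all libraries numbered 3 of batch 1 was chosen after seeing the data.

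The members, gene lists and tests were chosen with earlier results of these data known. Full values are given for the TIMPs, for members called with HIF-1a or HIF-2a in both batches, for those called in the domain-swap effects, and for the 2 largest changes each way in every other comparison among detected members without overlap. The 10 highest WT levels per kilobase are given as values. Members outside this rule (MMP17, MMP25, MMP28, ADAM8, ADAM9, ADAM17, ADAMTS6, ADAMTS10, ADAMTS13 and genes of the other lists) were named after their values were seen.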

Additional observations from a re-analysis of the deposited data

Results flagged for a closer look

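The effect of the IDR on ADAMTS2 differed between the 2 structured parts of batch 2. The interaction was 2.22 ± 0.19 on the log2 scale (SE, edgeR quasi-likelihood test, adjusted p = 1.11e-11, n = 3 libraries per line). The HIF-2α IDR went with a higher level beside the HIF-2α structured part, with means of 8.82 CPM in HIF-2a and 4.99 in HIF-2a/1a. Beside the HIF-1α structured part it went with a lower level, with means of 0.980 CPM in HIF-1a/2a and 2.58 in HIF-1a. ADAMTS2 was the only member called for this interaction, where 1.18% of all tested genes were called.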

How the results depend on the processing

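Of 128 calls of single members, 94 were made in every alternative and 95 in every fit without 1 library, and none was reversed. DESeq2 made 125 of 128 and RLE size factors 128 of 128, no filter on low counts 127 of 128, only the groups compared 102 of 113, and leaving out all libraries numbered 3 in batch 1 (chosen after seeing the data) 53 of 61. The replicate block made 128 of 128 and moved no count by over 1.5 times other than those given here. In batch 1 it also called ADAMTS14 with HIF-1a (6.30, adjusted p = 0.00811), MMP1 in HIF-1a R30E (2.00, adjusted p = 0.00836) and ADAMTS10 for HIF-1a against its mutants (3.92, adjusted p = 0.00463), beside the calls of ADAMTS6, ADAMTS12, MMP7, MMP13, MMP15, MMP17 and MMP19 given with those genes. DESeq2 also made calls that edgeR did not, among them MMP11 with HIF-1a in batch 1 (4.10, adjusted p = 0.00958), MMP25 with HIF-1a in batch 2 (1.34, adjusted p = 0.00735) and ADAMTS10 for the IDR effect (1.91, adjusted p = 0.00826). In batch 2 the numbers did not pair the libraries (correlations -0.0933 to 0.185).

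Counts of called members moved by over 1.5 times as follows, and the cause was not tested. With HIF-2a R27E, the 2 calls became 4 with DESeq2, 4 without the filter, 4 with the replicate block and 0 with only the groups compared. HIF-1aDM went from 2 to 4 without the filter, and HIF-2aDM from 2 to 1 with only the groups compared and to 1 without the libraries numbered 3. The interaction went from 1 to 2 without the filter and to 2 with the replicate block, which added MMP1 (1.63). The batch difference with HIF-2a went from 0 to 1 with DESeq2, the replicate block and no filter, MMP1 each time (4.10, 4.11 and 4.06).

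Leaving out each library in turn gave 5 to 12 calls with HIF-1a in batch 1 (10 in full, 6 without HIF-1a library 2, 5 without WT library 1, and 6 without WT library 2 or 3) and 10 to 11 in batch 2. It gave 8 to 10 with HIF-2a in batch 1 and 14 to 17 in batch 2, 15 to 17 for HIF-1a/2a, 7 to 9 for HIF-2a/1a, 10 to 11 for HIF-2a KIN, 2 to 3 for HIF-1b KIN, 5 to 6 for HIF-1a R30E, and 1 to 2 for HIF-1aDM. It gave 1 to 3 for HIF-2a R27E, 1 to 2 for HIF-2aDM, 4 to 5 for HIF-1a against its mutants and 7 to 10 for HIF-2a against its own. The IDR effect had 8 to 11, the structured-domain effect 3 to 4, the interaction 1 to 2 (2 without HIF-1a/2a library 3), and the batch differences 0 to 1 for HIF-2a (1 without HIF-2a library 1 of batch 1) and 0 to 0 for HIF-1a. In fits with 2 libraries in a group, that group shares the spread of the others.

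At a minimum of 50 mean raw reads, 30 members in batch 1 and 31 in batch 2 were detected in place of 36. At 10 in any group they were 40 and 42, and in every group 28 and 32. TIMP3, MMP7, ADAMTS10, ADAMTS14 and ADAM18 rest on few reads, and depth limits the size of their changes.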
